A study of Mus musculus with 6 samples.

Results

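Arap3 and 9 of its paralogs, 10 genes for Arf GTPase-activating proteins, were followed in mouse mammary tumor explant cells with and without depletion of CdGAP. The members are the rows of the deposited table named Arap1, Arap2, Arap3, Asap1, Asap2, Asap3, Adap1, Acap2, Git1 and Git2, 10 of 41214 genes. All 10 had enough reads to be tested, among 13483 genes that passed the filter on low values. The family was chosen by the level of Arap3, which was close to zero in the depleted cells. Its difference between the groups is therefore a description with no test, and the other 9 are set beside it.

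The cells came from tumor explants of NMuMG, a mouse mammary epithelial line, that expressed Neu-NT, the oncogenic rat version of ErbB2. They were cultured in medium with serum, insulin and G418. Both groups carry Neu-NT and a hairpin: the control group a control hairpin (genotype Neu-NT shCON, 3 libraries), the other a hairpin against CdGAP (genotype Neu-NT shCdGAP, 3 libraries). The cell type label of all 6 libraries names the control hairpin, so that only the genotype label separates the groups. Whether each population is a clone, and whether libraries stem from separate cultures, is not in the labels. P-values then reflect only library-to-library spread, which may be technical. Arhgap31 encodes CdGAP, which inactivates Rac1 and Cdc42, and the study concerned how it acts with Zeb2 in repression of the E-cadherin gene.

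Arf GTPases recruit coats and lipid enzymes to membranes when they hold GTP. Arf GAPs end that state by speeding GTP hydrolysis, and exchange factors start it. The ARAP proteins bind the lipid product of PI3-kinase, the ASAP proteins act at focal adhesions and invasive protrusions, ADAP1 and ACAP2 link Arf6 to membrane lipids and endosomes, and the GIT proteins hold the PIX and PAK signaling complex at adhesions. ARAP3 is best known from endothelium and neutrophils, where it inactivates Arf6 downstream of PI3-kinase.

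Zeb2 and related repressors bind E-boxes of the form CACCTG, which reads CAGGTG on the other strand. RefSeq start sites on GRCm38.p6 matched 7 of the 10 members, with 11 start sites in all. Arap3, Asap1 and Asap2 had no matched start site, so these genes, Arap3 among them, were not searched. In the 250 bases before each start, on both strands, 3 of the 7 members held the motif: Adap1, Acap2 and Arap2. That is 3 of their 11 windows, and of all 32851 such windows in the table of start sites 17.2% held it. The 4 stretches are shown because the motif was shared by a member that rose, Adap1, one that fell, Acap2, and one that did not pass the test, Arap2. Each runs 5′ to 3′ on the gene's own strand, with the E-box in capitals.
Adap1, chr5:139325616-139325645, minus strand: gcgaccccgcccCAGGTGgacccgttgagg
Acap2, chr16:31201402-31201431, minus strand: agtgaggcaggcCACCTGacttccttcctt
Arap2, chr5:62766378-62766407, minus strand: gcagacgcgctcCAGGTGgcctgggcggca
Arap2, chr5:62766199-62766228, minus strand: cgcggcgccgagCACCTGggcggcccgggc
The motif began 169 bases before the start in Adap1, 181 in Acap2, and 218 and 39 in Arap2. A match to these letters is a description and says nothing of binding.

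Total reads assigned to genes ranged from 19176540 to 26824249 per library. Replicate 1 of shCdGAP stood apart: its log2 values correlated at 0.948 and 0.938 across genes with replicates 2 and 3 of its group, which correlated at 0.996 with each other. Changes that leaving it out made to calls are given with each result. The hairpin's target, Arhgap31, had 0.149, 0.826 and 0.748 FPKM in the 3 shCdGAP libraries and 1.19, 1.30 and 1.35 FPKM in shCON, lower in every shCdGAP library. Its log2 fold change of -0.56 missed the threshold (adjusted p = 0.0836, limma) and passed it without shCdGAP replicate 1 (-0.35, adjusted p = 0.0157). FPKM is a read count scaled for gene length and, in these values, for a size factor of each library rather than its read total. It allows levels to be compared between genes. Fold changes below are fitted with limma on log2(FPKM + 1), shCdGAP over shCON, and called at a Benjamini-Hochberg adjusted p under 0.05 over all 13483 genes.

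The labelled epithelial identity was checked on 8 markers. Keratin genes Krt18, Krt8 and Krt19 had means of 2313, 2242 and 419 FPKM over the 6 libraries. Cdh1, the E-cadherin gene, stood at 37.9 to 57.2 FPKM in shCON and 152 to 184 in shCdGAP. Cldn3 and Cldn7 had no reads. Epcam was listed at 0 FPKM in all 3 shCdGAP libraries and at 0.517 to 0.812 in shCON, and Cldn4 did not exceed 0.0859 FPKM. Summed over 7 basal and myoepithelial markers the level was 0.587 to 0.748 FPKM in shCON and 0.719 to 2.33 in shCdGAP. In that list Krt5 had means of 0.607 FPKM in shCON and 0.0131 in shCdGAP, and Cnn1 of 0.0270 and 1.34. Summed over 8 fibroblast markers the level was 0.598 to 1.10 FPKM over both groups. Because these are bulk samples, fewer cells of a type and less RNA per cell cannot be told apart.

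The 10 genes lie on 8 chromosomes, so they are not a cluster. On mm10, Arap3 (ENSMUSG00000024451) occupies chromosome 18, 37972628 to 37998969, minus strand. Arap1 (ENSMUSG00000032812) is on chromosome 7, 101348067 to 101412586, plus strand, and Arap2 (ENSMUSG00000037999) on chromosome 5, 62602445 to 62766159, minus strand. Adap1 (ENSMUSG00000056413; 139271876 to 139325622, minus strand) and Git2 (ENSMUSG00000041890; 114727407 to 114775517, minus strand) are also on chromosome 5. Asap1 (ENSMUSG00000022377) is on chromosome 15, 64086857 to 64382919, minus strand, Asap2 (ENSMUSG00000052632) on chromosome 12, 20990459 to 21270171, plus strand, and Asap3 (ENSMUSG00000036995) on chromosome 4, 136206365 to 136245216, plus strand. Git1 (ENSMUSG00000011877) is on chromosome 11, 77493562 to 77507786, plus strand. Acap2 (ENSMUSG00000049076) is on chromosome 16, 31092412 to 31201245, minus strand, 7397 kb from Arhgap31 on the same chromosome. In the annotation, exons of Asap2 share 402 bases with Itgb1bp1 on the opposite strand, 5.77% of its exonic bases, and exons of Arap1 share 150 bases with Gm45837. Asap2 also shares 481 bases with Gm5977, 337 with Gm30124, 335 with Gm21989 and 114 with Gm20535, and Arap3 115 with Mir6981. Gm30124 has no entry in the deposited data, and the others just named had at most 7 reads over all libraries. How counting treated strand and shared bases is not given in the sources used here. The values of Asap2, Arap1 and Arap3 may include some reads of those partners or lack reads of shared bases.

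Among the 10 members, Arap3 was one of the 3 with the highest means in control cells and had the lowest mean in depleted cells, where its range overlapped that of Asap3. Control libraries 1, 2 and 3 held 38.4, 30.6 and 32.7 FPKM of it, from 3875, 4398 and 4565 reads. Depleted libraries 1, 2 and 3 held 0.787, 0.427 and 0.285 FPKM, from 94, 49 and 37 reads. Every depleted library was far below every control library. The group means were 33.9 ± 4.04 FPKM in shCON and 0.500 ± 0.259 in shCdGAP (SD, n = 3), a ratio of 0.0147, or 67.8-fold lower. The fitted log2 fold change was -4.55, and 5 of the 13483 tested genes, Arap3 included, had one as low. It lay between -4.68 and -4.44 when any 1 library was left out. On the log2 scale with a pseudocount of 0.1 FPKM it was -5.90, and in the authors' deposited table -5.68.

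**Figure D1:**
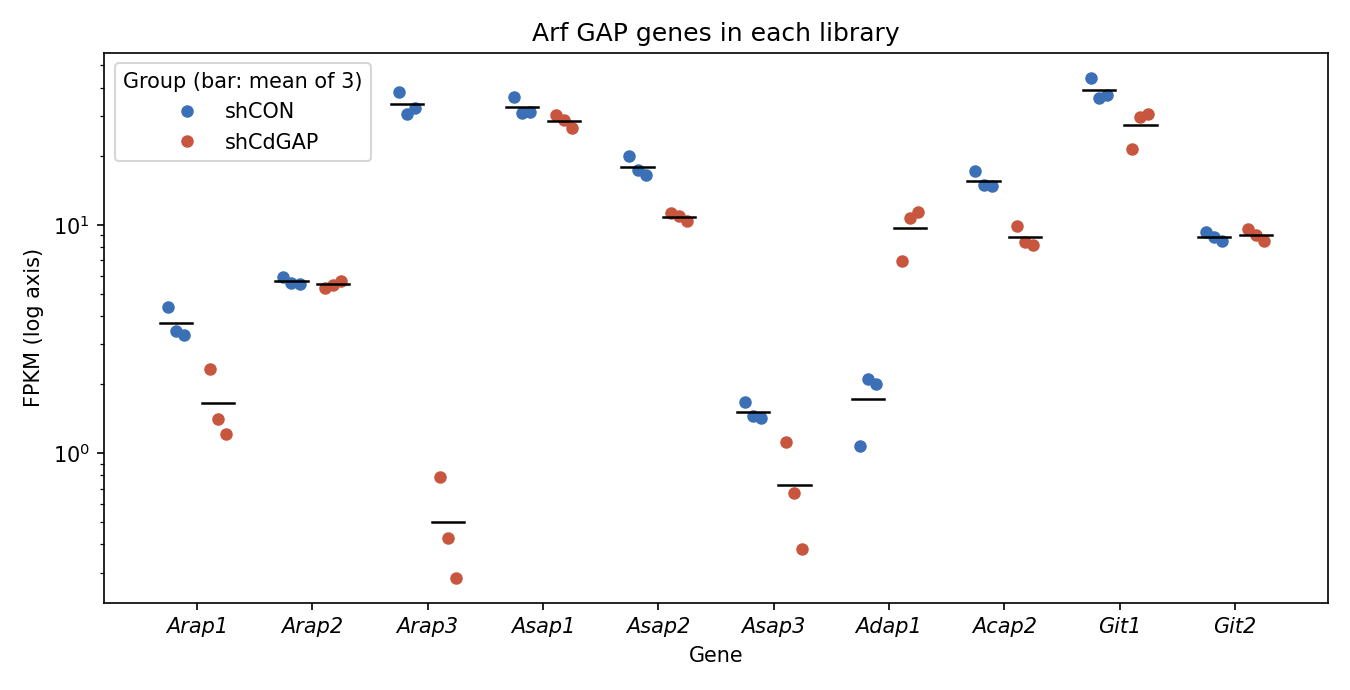
FPKM of each of the 10 Arf GAP genes (log axis) in the 3 shCON libraries (blue) and the 3 shCdGAP libraries (red); points are libraries, left to right replicates 1 to 3, and bars are group means. Arap3 goes from 30.6 to 38.4 FPKM in shCON to 0.285 to 0.787 in shCdGAP, while Adap1 is higher in every shCdGAP library and Arap2 and Git2 overlap between the groups.

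Among the other ARAP genes, Arap1 fell and Arap2 did not pass the test. Arap1, whose product regulates Arf proteins during receptor trafficking, stood at 4.37, 3.44 and 3.30 FPKM in shCON and 2.33, 1.42 and 1.21 in shCdGAP. All 3 depleted libraries were below all control libraries. The fitted log2 fold change was -0.84 with an SE of 0.19 (adjusted p = 0.0260, limma), from a mean of 3.71 ± 0.583 to 1.65 ± 0.597 FPKM (SD, n = 3). That call was lost without shCdGAP replicate 2 (adjusted p = 0.0948) or 3 (0.0653) or shCON replicate 1 (0.0893), 2 (0.0857) or 3 (0.0746), and without shCdGAP replicate 1 the fold change was -1.02 (adjusted p = 0.0015).

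Arap2, which binds the lipid product of PI3-kinase and acts on Arf6 at focal adhesions, stood at 5.90, 5.57 and 5.54 FPKM in shCON. In shCdGAP it stood at 5.32, 5.47 and 5.68 FPKM. The ranges of the groups overlapped, and the fitted difference was -0.040 with a 95% interval from -0.26 to 0.18 on the log2 scale (adjusted p = 0.79, limma). Its sign depended on the scaling, at 0.0064 with trimmed mean scaling, and it was -0.021 without shCdGAP replicate 1 (adjusted p = 0.858, limma).

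The make-up of the ARAP subfamily differed between the groups, which follows from the Arap3 values by which the family was chosen and is no separate result. The 3 ARAP genes summed to 48.7, 39.6 and 41.5 FPKM in shCON replicates 1, 2 and 3, of which Arap3 made up 77.2% to 78.9%. In shCdGAP the sum was 8.44, 7.31 and 7.17 FPKM, and Arap3 made up 3.98% to 9.33%. Arap2 was the most abundant ARAP transcript in every depleted library. Neither Arap1 nor Arap2 had a higher mean in shCdGAP.

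The ASAP genes had lower means in shCdGAP, and 1 of 3 passed the test. Asap2, whose product binds paxillin and the kinase Pyk2, stood at 20.04, 17.3 and 16.6 FPKM in shCON and 11.3, 11.0 and 10.4 in shCdGAP, with no overlap. The fitted log2 fold change was -0.67 with an SE of 0.10 (adjusted p = 0.00751, limma), a fall from 18.0 ± 1.80 to 10.9 ± 0.440 FPKM (SD, n = 3), and the call held without each single library.

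Asap1, a Src substrate of focal adhesions and invadopodia, was the most abundant ASAP gene, at 36.4, 31.1 and 31.3 FPKM in shCON and 30.4, 28.7 and 26.7 in shCdGAP. The groups did not overlap but came close. The fitted difference was -0.19 with a 95% interval from -0.46 to 0.066 (adjusted p = 0.257, limma), and without shCdGAP replicate 1 it was -0.24 (adjusted p = 0.0925). Asap3 was low throughout, at 1.68, 1.45 and 1.43 FPKM in shCON and 1.12, 0.668 and 0.381 in shCdGAP. From 40 to 108 reads lay behind each shCdGAP value. It missed the threshold (log2 fold change -0.57, SE 0.16, adjusted p = 0.0570, limma). With replicate numbers as a block it passed (adjusted p = 0.0492), as it did without shCdGAP replicate 1 (-0.73, adjusted p = 0.0031).

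Adap1 was the single member that rose. Adap1, or centaurin-alpha, binds inositol phosphates and inactivates Arf6, and is known for its high level in neurons. Its control levels were 1.07, 2.11 and 2.01 FPKM, derived from 67, 188 and 174 reads. In shCdGAP it stood at 6.98, 10.8 and 11.3 FPKM, from 516, 763 and 911 reads. Every depleted library was above every control library, and replicate 1 was the lowest in each group. The mean went from 1.73 ± 0.574 to 9.69 ± 2.37 FPKM (SD, n = 3), 5.59 times as high. On the log2 scale the fitted difference was 1.97 with an SE of 0.24 (adjusted p = 0.00321, limma), was 2.16 without shCdGAP replicate 1, and stayed past the threshold without each single library.

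Acap2, which inactivates Arf6 at endosomes and binds Rab35, fell. It stood at 17.2, 14.9 and 14.8 FPKM in shCON and 9.92, 8.41 and 8.13 in shCdGAP, with no overlap. The fitted log2 fold change was -0.76 with an SE of 0.12 (adjusted p = 0.00707, limma), from a mean of 15.6 ± 1.35 to 8.82 ± 0.964 FPKM (SD, n = 3), and the call held without each single library. Genes of chromosome 16, where Acap2 and Arhgap31 lie, had a median log2 fold change of -0.27 over 282 genes whose mean reached 3 FPKM, against -0.00084 over 9417 such genes of all chromosomes. On chromosome 18, which holds Arap3, the median was 0.0014 over 230 genes. Chromosomes 4 and 11, which hold Asap3 and Git1, had medians of -0.15 and -0.11. Those of chromosomes 5, 7, 12 and 15, which hold the other members, lay between 0.0039 and 0.051. The part of these chromosome-wide values in the differences of Acap2, Asap3, Git1 and Arhgap31 was not tested.

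Of the GIT genes, neither passed the test with all libraries. Git1, the scaffold that brings PIX and PAK to adhesions, was the most abundant member in shCON by mean, at 44.0, 36.2 and 37.2 FPKM. In shCdGAP it stood at 21.6, 29.7 and 30.7 FPKM. The groups did not overlap, but shCdGAP replicate 1 was well below replicates 2 and 3. The fitted log2 fold change was -0.51 with an SE of 0.16 (adjusted p = 0.0781, limma) and without that replicate -0.36, which passed (adjusted p = 0.0334). Git2, its close paralog, stood at 9.29, 8.81 and 8.52 FPKM in shCON and 9.63, 9.08 and 8.50 in shCdGAP. Those ranges overlapped, with a fitted difference of 0.027 and a 95% interval from -0.20 to 0.26 (adjusted p = 0.871, limma). Its sign flipped with library size scaling (-0.025).

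**Figure D2:**
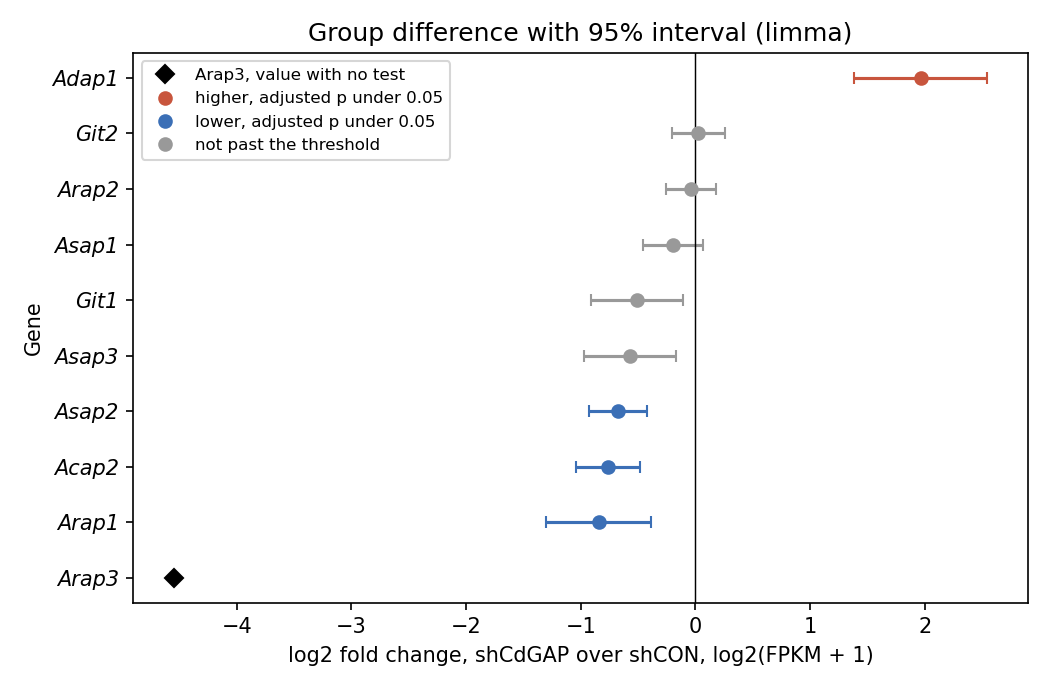
Fitted log2 fold change of each member on the log2(FPKM + 1) scale, shCdGAP over shCON, with 95% intervals from limma over 3 libraries a group; Arap3 is drawn as a value with no interval or test. Adap1 lies at 1.97, the paralogs that fell lie between -0.84 and -0.67, and Arap3 lies at -4.55.

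Counted together, 4 of the 9 paralogs changed, 1 higher and 3 lower, where 21.0% of all 13483 tested genes changed (1337 higher, 9.92%, and 1501 lower, 11.1%). Without shCdGAP replicate 1, 6 of the 9 passed, 1 higher and 5 lower, while the count over all genes went from 2838 to 5373. Leaving out any 1 of the other 5 libraries left 3 of 9. The groups did not overlap for 7 of the 9, against 44.1% of tested genes. Their median log2 fold change was -0.51, and that of all tested genes -0.010. In the authors' deposited table, adjusted p-values under 0.05 were given for 5 of the 9, 1 higher and 4 lower, and for 23.8% of 16970 genes. Asap3 was called in the authors' deposited table (adjusted p = 0.0351 by the authors' test) and not in the fit of all 6 libraries without a block.

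The order of levels differed between the groups. In shCON it ran Git1, Arap3, Asap1, Asap2, Acap2, Git2, Arap2, Arap1, Adap1 and Asap3, from a mean of 39.1 to 1.52 FPKM. Git1 and Arap3, Arap3 and Asap1, Asap2 and Acap2, and Adap1 and Asap3 overlapped in range there. In shCdGAP it ran Asap1, Git1, Asap2, Adap1, Git2, Acap2, Arap2, Arap1, Asap3 and Arap3, from 28.6 to 0.500 FPKM. Asap1 and Git1, each neighbouring pair from Asap2 to Acap2, and Asap3 and Arap3 overlapped there. Adap1 moved from the ninth place to the fourth, with no overlap between its groups.

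Summed FPKM of the 10 genes was 178, 151 and 153 in shCON replicates 1, 2 and 3 and 99.3, 106 and 103 in shCdGAP. Arap3 made up 20.2% to 21.5% of that sum in shCON and 0.276% to 0.792% in shCdGAP. Without Arap3 the sum was 121 to 140 FPKM in shCON and 98.6 to 105 in shCdGAP, so the groups stayed apart, with a ratio of means of 0.804 against 0.638 with Arap3. The rise of Adap1 is contained in both sums.

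**Figure D3:**
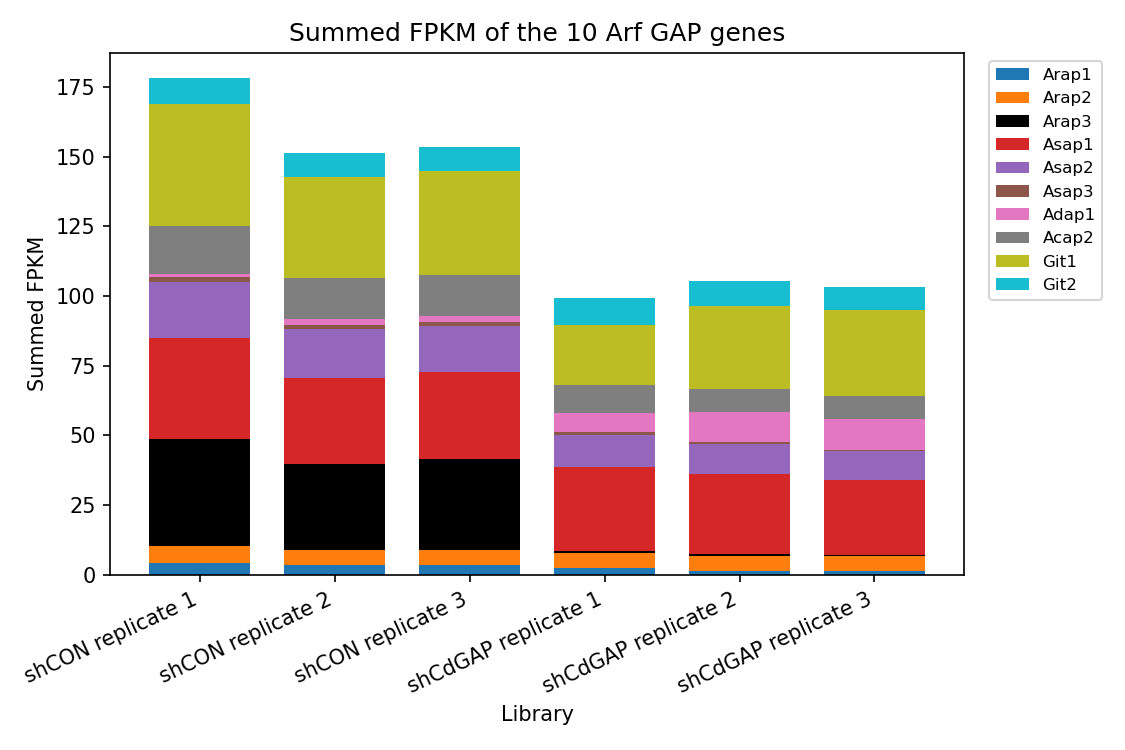
Summed FPKM of the 10 members in each library, stacked by gene, with Arap3 in black. The shCON libraries reach 151 to 178 FPKM and the shCdGAP libraries 99.3 to 106, and the black part goes from 20.2% to 21.5% of the bar to under 1 percent.

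In the members, replicate 1 lay at an end of the range in both groups. Replicate 1 of shCdGAP held the highest value of its group for 7 of the 10 members and the lowest for Arap2, Adap1 and Git1. Replicate 1 of shCON held the highest value of its group for every member but Adap1, where it held the lowest. The log2 range in shCdGAP was narrower than in shCON for Asap1 (0.18 against 0.22) and Asap2 (0.11 against 0.25), and wider for the other members. For Arap3 its value was 0.40 above the mean of replicates 2 and 3 on the log2(FPKM + 1) scale. For Arhgap31 it was 0.64 below that mean. The depleted library with the least Arhgap31 thus held the most Arap3 of the 3, at 0.787 FPKM, still under 30.6 FPKM, the lowest control value. In shCON too, replicate 1 had the least Arhgap31, 1.19 FPKM, and the most Arap3, 38.4 FPKM. Replicates 2 and 3 went the other way: in each group, the one with less Arhgap31 also held less Arap3. A link between the levels of the 2 genes within groups was not tested.

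Of the 6 Arf GTPase genes, 0 passed the threshold with limma and 0 with limma-voom on reads, but some passed under other settings. Arf5 and Arf6 had an unadjusted p under 0.05 with limma (0.0198 and 0.0311). Arf5 passed as higher with trimmed mean scaling (adjusted p = 0.0449, limma), with replicate numbers as a block (0.0473) and without both libraries numbered 1 (0.00384). Arf2 stood at 23.1, 45.4 and 48.1 FPKM in shCON and 10.4, 26.0 and 28.4 in shCdGAP, overlapping ranges in which replicate 1 was the lowest of each group. Its log2 fold change of -0.87 missed the threshold (adjusted p = 0.232, limma), passed with the block (0.018) and, at -0.76, without both libraries numbered 1 (4.41e-04). Arf6, a target of the products of Arap2, Arap3, Adap1 and Acap2, stood at 63.5, 62.7 and 60.5 FPKM in shCON. In shCdGAP it stood at 40.7, 53.8 and 51.5 FPKM. Those groups did not overlap, with a log2 fold change of -0.36 that missed the threshold (adjusted p = 0.105, limma) and passed, at -0.24, without shCdGAP replicate 1 (adjusted p = 0.0385), as it did without both libraries numbered 1 (0.0313). Arf1 and Arf4, which act mainly at the Golgi, had the highest means, and their fitted differences were -0.0070 and -0.059 (adjusted p = 0.977 and 0.807, limma). Both signs turned positive without shCdGAP replicate 1.

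Other genes around the Arf GAPs moved in both directions. Over 7 lists of 105 genes, 95 were tested, 12 were higher, 17 were lower and 66 did not pass, with a median log2 fold change of -0.054. That is 30.5% called, against 21.0% of all tested genes, whose median was -0.010. With trimmed mean scaling the split was 16 higher and 15 lower. These counts moved with single libraries: 44 changed without shCdGAP replicate 1, 11 without shCdGAP replicate 2, and 14, 9 and 10 without shCON replicates 1, 2 and 3. Of the 29 changed genes, 8 were called in each of the 6 fits that leave out 1 library: Cyth4, Pik3cd, Rapgef4, Sh3kbp1 and Src lower, and Psd3, Rab11fip3 and Rapgef5 higher.

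**Figure D4:**
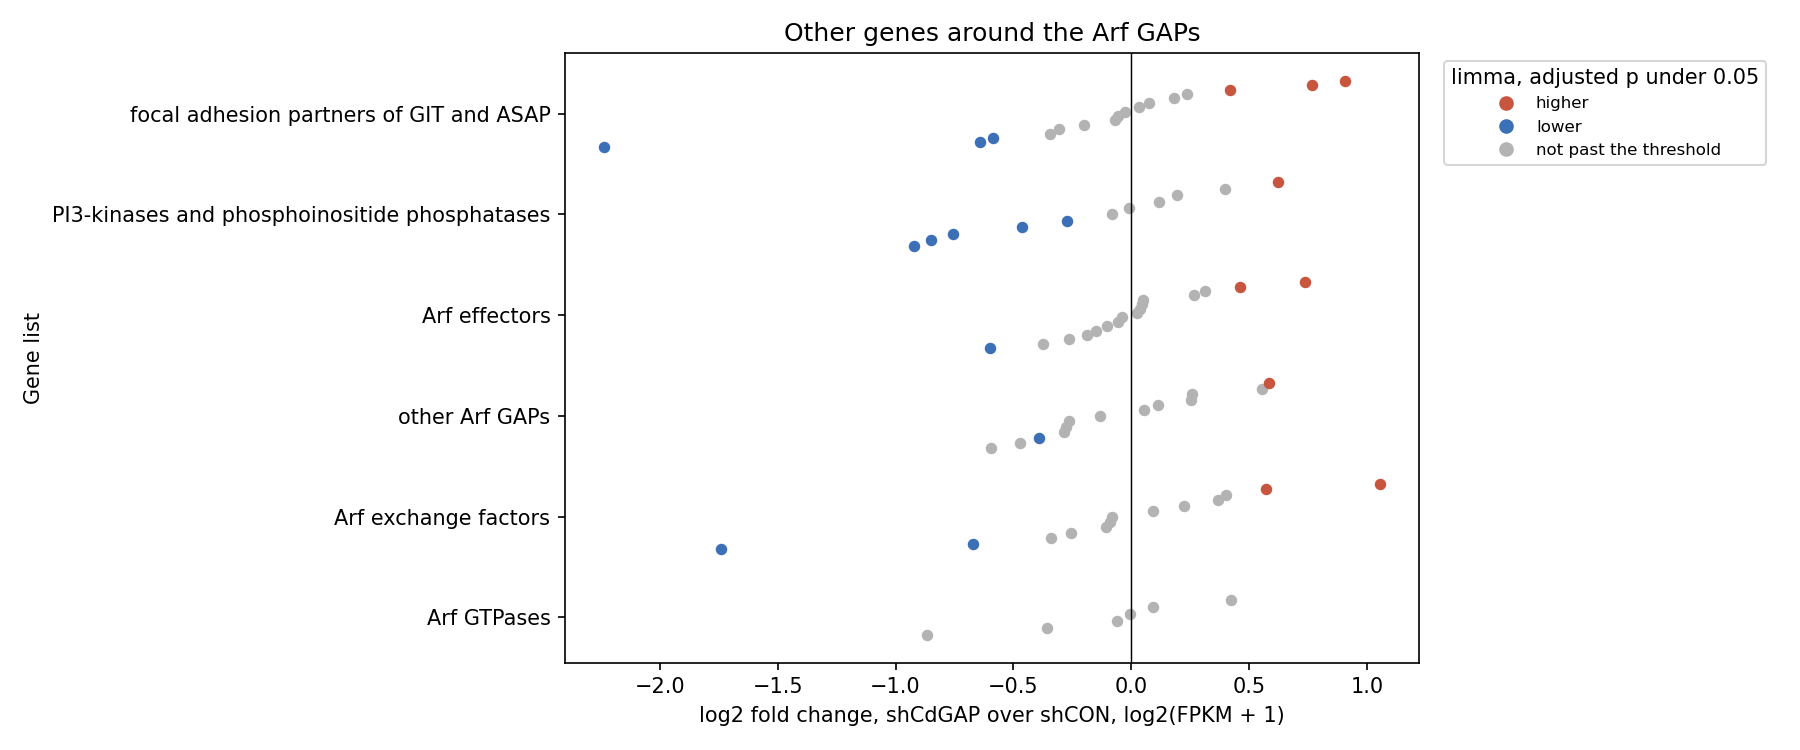
Fitted log2 fold change of each tested gene of 6 of the 7 lists around the Arf GAPs, on the log2(FPKM + 1) scale, shCdGAP over shCON; red and blue mark genes past the limma threshold. Sh3kbp1 and Cyth4 lie at -2.24 and -1.74, and none of the 6 Arf GTPase genes is past the threshold.

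Exchange factors, which load Arf proteins with GTP, had 2 higher, 2 lower and 9 not past the threshold of 13 tested, or 30.8% called where 21.0% of all tested genes were. Cyth4, a cytohesin known from blood cells, fell from a mean of 18.4 ± 2.36 in shCON to 4.80 ± 0.332 FPKM in shCdGAP (SD, n = 3), with a log2 fold change of -1.74 and an adjusted p of 4.17e-04 (limma). Psd3, an Arf6 exchange factor, rose from 2.81 ± 0.168 to 7.02 ± 1.63 FPKM (1.06 on the log2 scale, adjusted p = 0.00722, limma). Iqsec1, another Arf6 exchange factor, fell and Fbxo8 rose, with log2 fold changes of -0.67 and 0.57. Both calls were lost without each shCON library, and also without shCdGAP replicate 2 for Iqsec1 (highest adjusted p = 0.0627) and replicate 3 for Fbxo8 (highest adjusted p = 0.142).

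Of 13 other Arf GAP genes, 1 was higher and 1 lower, 15.4% against 21.0% of all tested genes. Adap2, the paralog of Adap1, fell from 0.439 ± 0.108 to 0.0961 ± 0.0482 FPKM (SD, n = 3), the opposite direction to Adap1 but at a much lower level (log2 fold change -0.39, adjusted p = 0.0152, limma). It had 6, 2 and 4 reads in shCdGAP and 17, 25 and 15 in shCON, and passed the filter on low values only through shCON. A call of lower was thus favoured in advance. That call was lost without shCdGAP replicate 2 or shCON replicate 1 or 2 (highest adjusted p = 0.0669). Agfg1 rose from 23.2 ± 0.445 to 35.8 ± 7.78 FPKM, by 0.58 on the log2 scale (adjusted p = 0.0484, limma). Its call was lost when replicate numbers formed a block (adjusted p = 0.0665) and without shCdGAP replicate 2 or any shCON library (highest adjusted p = 0.156).

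Arf effectors had 2 higher and 1 lower of 16, a share of 18.8% near the 21.0% of all tested genes. Rab11fip3, which joins Arf6 and Rab11 at recycling endosomes, rose from 4.71 ± 0.245 to 8.52 ± 0.888 FPKM (SD, n = 3), by 0.74 on the log2 scale (adjusted p = 0.00636, limma). The motor adaptor Mapk8ip3 rose by 0.46 and the lipid-binding Plekha3 fell by 0.60 on the log2 scale. The call on Mapk8ip3 was lost without shCdGAP replicate 2 or 3 or shCON replicate 2 or 3 (highest adjusted p = 0.136), and that on Plekha3 without shCdGAP replicate 2 or any shCON library (0.164).

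PI3-kinases and phosphoinositide phosphatases, which set the lipids that ARAP proteins bind, had 1 higher and 5 lower of 11, or 54.5% called against 21.0% of all tested genes (11.1% lower). With replicate numbers as a block 3 were lower, Inppl1 and Inpp4b being lost (adjusted p = 0.0571 and 0.0600, limma). The catalytic subunit gene Pik3cd fell from 0.969 ± 0.295 to 0.159 ± 0.0415 FPKM (SD, n = 3), fitted at -0.76 on the log2 scale (adjusted p = 0.00684, limma), and Pik3ca from 15.4 ± 2.42 to 8.14 ± 1.64 (-0.85). The regulatory subunit gene Pik3r1 rose from 4.01 ± 0.467 to 6.70 ± 0.525 FPKM (0.62). The phosphatase gene Inpp5d fell from 0.274 ± 0.0372 to 0.0540 ± 0.0324 FPKM, a low level throughout. Inppl1, whose product SHIP2 binds ARAP3 directly and which is named here after its values were seen, stood at 55.6 ± 2.66 FPKM in shCON and 40.1 ± 2.61 in shCdGAP (-0.46, adjusted p = 0.0208, limma).
Except for Pik3cd, these calls were lost when some libraries were left out. Those on Inpp5d were lost without shCdGAP replicate 2 or shCON replicate 3 (highest adjusted p = 0.0581), and on Pik3r1 without shCdGAP replicate 2 or shCON replicate 2 or 3 (0.0766). The call on Inppl1 was lost without shCdGAP replicate 2 or any shCON library (0.0894), and that on Pik3ca without any single library other than shCdGAP replicate 1 (0.0745).

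Focal adhesion partners of GIT and ASAP proteins had 3 higher and 3 lower of 16, or 37.5% called against 21.0% of all tested genes. With replicate numbers as a block 1 was higher, Cd2ap and Vcl being lost (adjusted p = 0.0551 and 0.0518, limma). Sh3kbp1, encoding the adaptor CIN85 of receptor endocytosis, fell from 11.7 ± 2.21 to 1.66 ± 0.125 FPKM (SD, n = 3), fitted at -2.24 on the log2 scale (adjusted p = 3.53e-04, limma). Its close paralog Cd2ap, named here after its values were seen, stood at 113 ± 23.9 FPKM in shCON and 191 ± 20.6 in shCdGAP (log2 fold change 0.77, adjusted p = 0.0267, limma). The kinase gene Src fell from 33.7 ± 1.74 to 22.1 ± 0.220 FPKM and the adaptor gene Crkl from 22.7 ± 0.753 to 14.3 ± 1.64. Bcar1, encoding the docking protein p130Cas, rose from 40.3 ± 0.467 to 78.0 ± 18.9 FPKM. The call on Crkl was lost without shCON replicate 2 or 3 (highest adjusted p = 0.0609), on Bcar1 without shCdGAP replicate 2 or any shCON library (0.0797), and on Cd2ap without shCdGAP replicate 2 or 3 or shCON replicate 2 or 3 (0.112).

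Defining endothelial markers were near 0, while the leukocyte list held abundant members. Of 10 endothelial markers, Emcn and Cldn5 had no reads. The other 8 summed to 0.499 to 0.588 FPKM in shCON and 0.0968 to 0.154 in shCdGAP, lower in every depleted library. Of 2 tested members 1 fell, Ptprb, with means of 0.190 FPKM in shCON and 0.0556 in shCdGAP (adjusted p = 0.0392, limma). The defining genes Cdh5 and Pecam1 did not exceed 0.128 and 0.0582 FPKM in any library, whereas Arap3 reached 38.4. Of 10 leukocyte markers, Adgre1 and Tyrobp had no reads and Ptprc did not exceed 0.0197 FPKM. That list summed to 107 to 113 FPKM in shCON and 65.2 to 129 in shCdGAP, with overlapping ranges, mainly through Cd14 (55.1 to 126 FPKM over the 6 libraries). Of 5 tested members, 1 rose (Itgam, at most 0.257 FPKM) and 1 fell. Itgam passed the filter on low values only through shCdGAP, with 6, 7 and 2 reads in shCON, so that a call of higher was favoured in advance. Cd68 was lower in every shCdGAP library, at 2.37 to 8.45 FPKM against 12.2 to 17.3. The part of these markers in the fall of Arap3 was not tested.

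None of the 3 tested genes followed near Arap3 passed the test. Hdac3, Rell2 and Fchsd1 start within 200 kb, at 44.0, 43.9 and 29.2 kb from the start of Arap3. Genes were matched by name between the annotation and the deposited data, so a neighbour named otherwise in either would be missing. Hdac3, a histone deacetylase, stood at 21.1 to 21.4 FPKM in shCON and 18.5 to 21.6 in shCdGAP. Fchsd1 stood at 1.01 to 1.78 and 1.07 to 2.11 FPKM, and Rell2 at 0.157 to 0.279 and 0.108 to 0.694. All 3 overlapped between the groups, with fitted differences of -0.048, 0.11 and 0.10 for Hdac3, Fchsd1 and Rell2 (adjusted p = 0.769, 0.743 and 0.702, limma).

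By profile over the 6 libraries, the 5 genes most like Arap3 were S100a7a, Praf2, Ptprn, Cd34 and Procr. Likeness was the Euclidean distance between log2(FPKM + 1) values less each gene's mean, among 10329 genes of at least 5 CPM (reads scaled to library depth), and came to 0.378, 0.670, 0.781, 0.906 and 0.962. These distances rest mainly on the fall in shCdGAP and are a description. S100a7a, an S100 calcium-binding protein gene, stood at 218, 232 and 230 FPKM in shCON and 11.8, 10.2 and 7.93 in shCdGAP, its highest depleted value in replicate 1 as for Arap3. Praf2, a small membrane protein gene of the secretory pathway, had means of 43.1 and 0.423 FPKM, Ptprn, a protein of secretory granules, 34.3 and 0.710. The surface protein genes Cd34 and Procr, both markers of endothelium and of some progenitor cells, had means of 17.4 and 13.8 FPKM in shCON and 0.224 and 0.0350 in shCdGAP.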

How the data were processed

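The authors deposited 1 table. Its FPKM values are per gene and library, per the file headers. The other deposited columns are the authors' own comparison: the mean signal of a gene after scaling by size factors, the log2 change, the standard error, the Wald test's score, and raw and adjusted p-values. The submitters' processing notes name Trimmomatic, TopHat2 2.0.13, featureCounts, DESeq2 (used by the authors) and mm10, with no roles. The annotation release is not given in the sources used here, and gene positions are from GENCODE M21 of the same build.

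Whole reads were recovered from FPKM and mean signal (100% of values whole within 1e-06) and used for depth, filtering, CPM and limma-voom. A gene was tested where 3 libraries or more held at least 10 depth-scaled reads and all libraries together 15. The test was limma 3.58.1 in R 4.3.3 on log2(FPKM + 1), with group as the single term, trend and robust settings, 2-sided p and Benjamini-Hochberg adjustment. The pseudocount understates changes of low genes. Tables and plots were made in Python 3.11.15 (pandas 2.3.3, numpy 2.4.6, matplotlib 3.10.9). The steps were tested on simulated data.

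Libraries with the same number deviated together from the means of their groups (correlations of 0.43, 0.39 and 0.34). The pairing rests on this and not on the labels. Replicate 2 of shCdGAP also correlated with shCON replicate 3, at 0.35, and replicate 3 of shCdGAP with shCON replicate 2, at 0.27. These values set number 1 apart but do not separate numbers 2 and 3. Deviations within a group cancel out, so an outlying replicate 1 in both groups would by itself make the others correlate. That the block pairs numbers 2 and 3 as labelled is thus an assumption. No 2 libraries of a group agreed within counting noise. Alternatives were another pseudocount, filter, scaling, test and block, and leaving out libraries.

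The members and lists were chosen with earlier results of these data known. Named genes were the 10 members, Arhgap31, up to 4 changed genes of each list with the smallest p (or the 2 highest where none changed), marker genes at 0 or highest, and the 5 genes most like Arap3. Tested genes starting within 200 kb of Arap3 were also named, where the annotation and the deposited data gave the same gene name. Other names are marked where they stand or were needed to count a list. The counts over all lists include 1 list that is not reported here by itself.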

Additional observations from a re-analysis of the deposited data

How the results depend on the processing

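The count of changed genes was 1237 to 5373 when 1 library was left out, against 2838 with all, and that of changed pathway genes 9 to 44 against 29. Without both libraries numbered 1 they were 6506 and 53. The count of changed paralogs of Arap3 stayed between 3 and 6 over all 14 alternatives. The fold change of Arap3 was -5.90 with a pseudocount of 0.1 FPKM and -6.20 with limma-voom. For 33 other genes, the members and the named pathway genes with Arhgap31, 456 fold changes were refitted. With 1 library left out, 138 kept their side of the threshold and their direction, 52 lost the call and 3 gained it. Under the other 8 settings 241 kept it, 7 lost it and 4 gained it. All sign changes were of genes not past the threshold. With 1 library left out, Git2 ranged from -0.012 to 0.068, Arf1 from -0.10 to 0.11 and Arf4 from -0.16 to 0.074. Arf1 reached 0.11 when shCdGAP replicate 1 was left out, and it was 0.017 and 0.0057 when shCON replicate 2 or 3 was. Git2 and Arf4 changed sign without shCdGAP replicate 1. Git2 was -0.025 with library size scaling. With trimmed mean scaling Arap2 was 0.0064 and Arf1 0.047, and without both libraries numbered 1 Arap2 was 0.0035, Arf1 0.069 and Arf4 0.025. With replicate block 2458 genes, 25 pathway genes and 5 paralogs changed, Asap3, Arf2, Arf5 and Agfg2 were gained, and Agfg1, Inppl1, Inpp4b, Cd2ap, Vcl and 2 other pathway genes were lost. It changed no other call among members and pathway genes. Asap3, Adap2, Inpp5d, Pik3cd, Rapgef4 and Rapgef5 fell below 5 CPM and have no value with that filter. The cause of these shifts was not tested. Reads in shCdGAP libraries, at most 94 for Arap3 and 108 for Asap3, limit the precision there.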
